A study of Homo sapiens with 4 samples.

Results

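The unfolded protein response and the integrated stress response were examined in Hep3B cells, a human hepatoma line, after knockdown of UNC50, a membrane protein of the Golgi apparatus. The 38 genes were taken from a list of endoplasmic reticulum (ER) chaperones, ER-associated degradation genes, stress sensors and ATF4-linked genes, out of 34809 gene names on the array, and each was read from its brightest probe. Cells were transfected with a plasmid that expresses a mock small hairpin RNA (shR-MOCK) or 1 of 3 hairpins against UNC50 mRNA (shR-467, shR-554 and shR-749), and all 4 cultures, the mock included, were selected with 1 µg/ml puromycin. Total RNA of each culture was measured on 1 single-colour Agilent array, so each hairpin had 1 array and the mock had 1. The cultures were purified cells with no cloning step described, of a line that the study gives as having a hepatitis B virus background. The SD given below is taken over the 3 hairpins as if they were replicate knockdowns, and it holds effects of a single hairpin as well as culture and array error, and the spread between mock cultures was not measured.

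Unfolded proteins in the ER are sensed by the membrane proteins IRE1 (the product of ERN1), PERK (EIF2AK3) and ATF6. IRE1 activates the transcription factor XBP1 by splicing its mRNA, ATF6 is cut in the Golgi apparatus to release a transcription factor, and both raise transcription of chaperones and of the machinery that removes misfolded proteins from the ER. PERK phosphorylates the translation factor eIF2, as do other kinases outside the ER, which lowers general protein synthesis but favours translation of ATF4, a factor that induces DDIT3 and genes of amino acid supply; this shared part is called the integrated stress response. Hepatocytes and hepatoma cells secrete large amounts of plasma protein and therefore carry a large ER folding machinery.

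The genes were placed in a chaperone and XBP1/ATF6 arm of 23 genes, an ATF4 arm of 12 genes and a group of 3 in neither arm (ERN1, EIF2AK3 and CREB3L3). Short promoter segments are printed for some of the genes that hold a motif searched for here, since the arms are known for different control elements. They were read from RefSeq promoter windows of assembly GRCh38.p14, which reach from 250 bases before to 50 bases after the start of a gene and were found for 35 of the 38 genes (not for DERL1, DERL3 and PDIA3). Capitals mark a motif with 25 bases on either side, each line runs 5′ to 3′ on the strand of the gene, and a motif on the other strand appears as its reverse complement. The ER stress response element (ERSE, CCAAT and CCACG with 9 bases between them) is known as a site of ATF6 together with NF-Y. It is shown for HSPA5, CRELD2 and XBP1.
HSPA5, chr9:125241366-125241434, minus strand: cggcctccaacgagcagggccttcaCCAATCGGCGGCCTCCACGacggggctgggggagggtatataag
CRELD2, chr22:49918529-49918597, plus strand: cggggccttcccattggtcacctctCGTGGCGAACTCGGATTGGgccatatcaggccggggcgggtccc
XBP1, chr22:28800578-28800646, minus strand: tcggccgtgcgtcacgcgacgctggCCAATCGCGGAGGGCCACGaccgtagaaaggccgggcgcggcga
The second form of this element (ERSE-II, ATTGG and CCACG with 1 base between them) is shown for the ER-associated degradation gene with the largest difference from mock and for the chaperone gene furthest below mock.
HERPUD1, chr16:56932000-56932060, plus strand: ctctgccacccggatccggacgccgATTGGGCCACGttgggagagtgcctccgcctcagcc
SDF2L1, chr22:21642089-21642149, plus strand: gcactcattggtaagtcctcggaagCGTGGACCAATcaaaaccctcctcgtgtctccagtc
The C/EBP-ATF response element (CARE, TGATGNAA) is known as a site of ATF4 with its partners. It is shown for the 3 genes of the ATF4 arm that hold it.
CHAC1, chr15:40953237-40953294, plus strand: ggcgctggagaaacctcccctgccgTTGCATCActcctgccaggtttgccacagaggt
ATF3, chr1:212565191-212565248, plus strand: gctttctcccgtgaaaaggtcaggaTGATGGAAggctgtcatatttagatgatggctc
ASNS, chr7:97872444-97872501, minus strand: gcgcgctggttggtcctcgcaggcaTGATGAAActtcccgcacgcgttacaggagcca
Both strands were searched, and a gene was counted if any of its windows held the motif. The ERSE was present for 7 of the 20 chaperone-arm genes with a window (HSPA5, HSP90B1, CALR, CANX, PDIA6, CRELD2 and XBP1). It was present for 0 of 12 ATF4-arm genes and for 0.0916% of 27305 genes with a window. The ERSE-II was present for 3 chaperone-arm genes (SDF2L1, HYOU1 and HERPUD1), for 0 of the ATF4 arm and for 0.0696% of all genes. The CARE was present for 3 of 12 ATF4-arm genes, for 1 chaperone-arm gene (HERPUD1) and for 4.46% of all genes. A shorter XBP1 element (UPRE, TGACGTGG) was present for 1 member, HYOU1, where it overlapped an ERSE-II, and for 0.927% of all genes. A match describes the letters in the window, not a bound site, and a gene without a match may hold the element outside the window.

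All 38 genes were well above background on all 4 arrays, and all were among the 25134 genes tested. Their probes were printed in 1 spot for 10 genes, in 2 for 25 and in 10 for 3 (DERL2, XBP1 and DDIT4). For 8 genes there were 11 other probes, of which 9 were well above background on all arrays; 3 of these had a mean difference of the opposite sign to the chosen probe, and 0 reached 1.5-fold on average. The arrays shared 1 slide, had 67.6% to 73.6% of their spots well above background, and had no saturated spot. UNC50 mRNA was 24.0% of mock under shR-467, 13.7% under shR-554 and 18.7% under shR-749. The hepatoma label was checked with 13 marker genes including AFP and ALB, all of which were well above background on all arrays, with log2 medians of 0.56, 0.05 and 0.27 above mock in the order shR-467, shR-554, shR-749. Of these markers 3 (APOA1, TTR and FGB) were at least 1.5-fold above mock with every hairpin (0.537% of all genes). FGB, a fibrinogen chain, was at 0.65, 1.94 and 2.67 in the same order and AFP at 0.20, 1.02 and 1.53. Of the 13 markers, 4 (AFP, TTR, FGB and KRT18) were highest with shR-749, where 26.3% of all genes were. The other 9, ALB among them, were highest with shR-467. The summed signal of 6 fibroblast or mesenchymal markers ranged from 8575 to 18773 scanner units and came mostly from VIM, while COL1A1 and COL3A1 were above background on no array. The sum of 4 endothelial markers was 266 to 355, with KDR above background on no array. The sum of 4 leukocyte markers was 3161 to 3936, mostly from CD68, and that of 4 biliary markers, which hepatoma cells also express, was 66257 to 85797. The part of these markers in the results below was not tested.

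Most of the 38 genes were less than 1.5-fold from the mock array on average, and no gene passed the test. The differences below are in log2 units after the 75th percentile of each array had been subtracted, and signals are scanner units before that scaling. Values that stand 3 together are in the order shR-467, shR-554, shR-749. In RNA of whole cultures, fewer cells that express a gene and less RNA per cell cannot be told apart. On the mean of the 3 hairpins, 3 of the 38 genes (HSPA5, HERPUD1 and CREB3L3) were at least 1.5-fold higher than in mock, the threshold used in the study, against 2.29% of all genes. None was 1.5-fold lower, against 7.65% of all genes. No gene reached 1.5-fold the same way with every hairpin, where 0.537% of all genes were higher and 1.21% lower. The mock array was below every hairpin for 13 of the 38 genes (17.5% of all genes) and above every hairpin for 5 (20.5% of all genes). With limma and Benjamini-Hochberg adjustment over all 25134 genes, 0 genes were called (0% of all, smallest adjusted p 0.615, for UNC50), and every one of the 38 genes had an adjusted p of 1.00 in limma. At an unadjusted p under 0.05 in limma, 3 of the 38 genes were counted (CREB3L3, HERPUD1 and SDF2L1), against 1.52% of all genes. With 1 mock array against 3, an exact permutation test cannot give a p below 0.25.

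**Figure D1:**
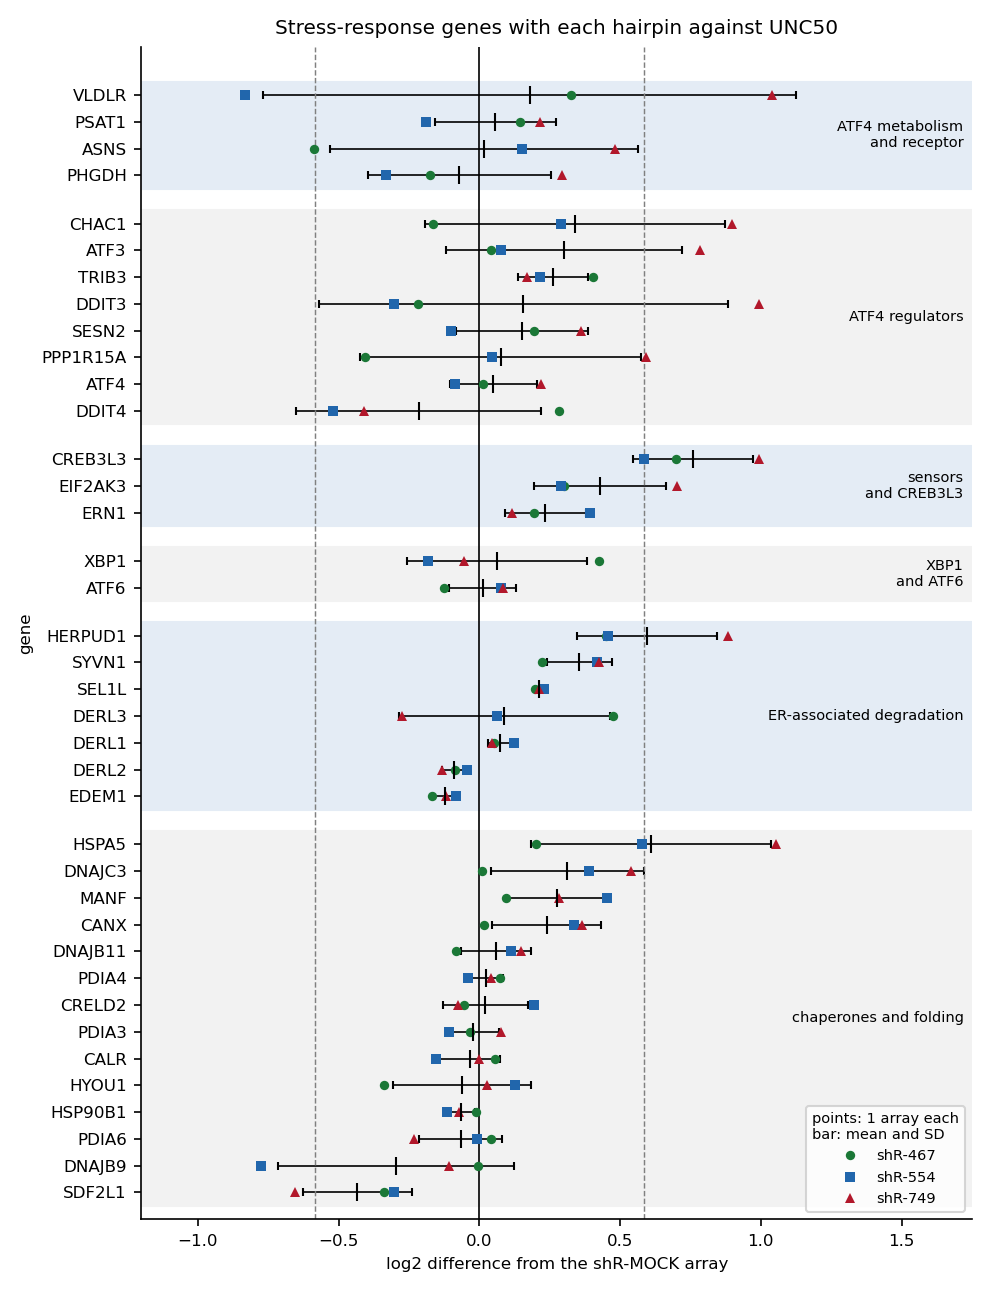
Log2 difference from the shR-MOCK array (x axis) for each of the 38 genes (y axis), grouped by role; each point is 1 array of a hairpin, the vertical tick and bar give the mean and SD over the 3 hairpins, and the dashed lines mark 1.5-fold. CREB3L3, HSPA5 and HERPUD1 have means beyond the upper line, and the ATF4 genes are spread more widely than the chaperone genes.

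Of the 14 chaperone and folding genes, 1, HSPA5, was 1.5-fold higher on average and 0 lower (2.29% and 7.65% of all genes), and the median of the group was 0.00, 0.05 and 0.03 under shR-467, shR-554 and shR-749, beside 0.03, -0.04 and -0.05 for all genes. HSPA5 encodes BiP, the main Hsp70 chaperone of the ER. Its signal was 1125 in mock, 1130.0 under shR-467, 2083 under shR-554 and 2355 under shR-749. The knockdown arrays were all above mock, by 0.20, 0.58 and 1.05, a mean of 0.61 ± 0.43 (SD, n = 3 hairpins), so that shR-749 was at 207% of mock and shR-467 at 115%. Without shR-749 the mean was 0.39, and with normexp background correction 0.56, both under 1.5-fold. Its probe lies at chr9:127997149-127997208 (hg19). DNAJC3, which encodes a co-chaperone of BiP, gave signals of 1755 in mock and 1544, 2849.9 and 2574 under shR-467, shR-554 and shR-749. It was close to mock with shR-467 (0.01) and higher with the others (0.39 and 0.54), a mean of 0.31 ± 0.27.

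In the other direction, SDF2L1, an ER protein that works with BiP and its J-domain partners, was below mock with every hairpin. Its signal was 95200 in mock, 65700 under shR-467, 95700 under shR-554 and 61000 under shR-749, and the scaled differences were -0.34, -0.30 and -0.65, a mean of -0.43 ± 0.19 (SD, n = 3 hairpins; limma's unadjusted p = 0.048). DNAJB9, a J-domain co-chaperone that restrains IRE1, gave 3490 in mock and 3040, 2530 and 3270 under shR-467, shR-554 and shR-749. It was low with shR-554 alone, at 58.4% of mock, and stood at 99.8% and 92.9% with shR-467 and shR-749.

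The other 10 folding genes had means from -0.07 to 0.28. HSP90B1, the ER member of the Hsp90 family, gave 68899 in mock and 59646.5, 79042 and 66099 with the hairpins, a mean difference of -0.07 ± 0.05 (SD, n = 3). The lectin chaperone CALR gave 92849 in mock and 84247.5, 103489 and 93549 with the hairpins, a mean of -0.03 ± 0.11. The disulfide isomerases PDIA3, PDIA4 and PDIA6 had means of -0.02, 0.02 and -0.07, DNAJB11 and HYOU1, which assist BiP, 0.06 and -0.06, and CRELD2 0.02. The membrane-bound lectin chaperone CANX and the secreted ER protein MANF were above mock with every hairpin at means of 0.24 ± 0.19 and 0.28 ± 0.18. A second CANX probe gave -0.15, 0.29 and -0.13, and the mean over both probes was 0.12. The chosen PDIA3 probe is placed by the array annotation (hg19) on chromosome 1 and the other PDIA3 probe on chromosome 15, so these probes may not report the same transcript; the latter gave a mean of 0.20.

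The 7 genes of ER-associated degradation, which carry misfolded proteins from the ER to the proteasome, had medians of 0.20, 0.12 and 0.05 under shR-467, shR-554 and shR-749. HERPUD1, a scaffold of the degradation complex, gave a signal of 12149 in mock, 14497 under shR-467, 20680.4 under shR-554 and 22586 under shR-749. All knockdown arrays were above mock, by 0.45, 0.46 and 0.88, a mean of 0.60 ± 0.25 (SD, n = 3 hairpins; limma's unadjusted p = 0.030), and shR-749 was the only hairpin past 1.5-fold. Without shR-749 the mean was 0.45, under 1.5-fold. Its probe lies at chr16:56977700-56977759 (hg19). SYVN1, the ubiquitin ligase of this complex, gave 4920 in mock and 5014, 8168 and 6660.0 under shR-467, shR-554 and shR-749. It was above mock with each, by 0.22, 0.42 and 0.42 (mean 0.36 ± 0.11). By its chosen probe, its partner SEL1L varied least of the group, with differences of 0.20, 0.23 and 0.21 (mean 0.21 ± 0.02). Another SEL1L probe, dim at 39.2 scanner units in mock, gave -0.23, 0.11 and 0.67, and a further brighter one gave 0.33, 0.29 and 0.39. DERL1 (0.07 ± 0.04), DERL2 (-0.09 ± 0.05) and EDEM1 (-0.12 ± 0.04), which help draw substrates to this complex, lay between -0.17 and 0.12 with every hairpin. DERL3 was spread from -0.27 with shR-749 to 0.47 with shR-467.

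The transcription factors of the arm showed no common direction. XBP1 gave signals of 57503 in mock, 67391 under shR-467, 62827 under shR-554 and 55861 under shR-749, and the scaled differences were 0.42, -0.18 and -0.05 (mean 0.06 ± 0.32, SD, n = 3 hairpins). It was above mock with shR-467 and below it with the others. Splicing of XBP1 was not measured here. ATF6 was at -0.12, 0.08 and 0.08 (mean 0.01 ± 0.12).

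The 3 genes in neither arm were above mock with every hairpin (17.5% of all genes), at group medians of 0.30, 0.39 and 0.70. CREB3L3, a liver and intestine transcription factor that is held in the ER membrane and released by proteolysis as ATF6 is, gave 2960 in mock, 4190 under shR-467, 5510 under shR-554 and 5950 under shR-749. The differences were 0.70, 0.58 and 0.99, and its mean of 0.76 ± 0.21 (SD, n = 3 hairpins; limma's unadjusted p = 0.011) was the largest of the 38 genes. At 149.99% of mock with shR-554 it missed 1.5-fold with that hairpin, and it passed with every hairpin under median scaling and under normexp background correction. Its probe lies at chr19:4172219-4172278 (hg19). EIF2AK3, which encodes PERK, gave 288 in mock, 309.9 under shR-467, 437 under shR-554 and 473 under shR-749. It was above mock by 0.30, 0.29 and 0.70 (mean 0.43 ± 0.23). ERN1, which encodes IRE1, was measured by a dim probe at 50.8, 50.7, 82.8 and 55.5 scanner units in the order mock, shR-467, shR-554, shR-749, a mean difference of 0.23 ± 0.14.

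**Figure D2:**
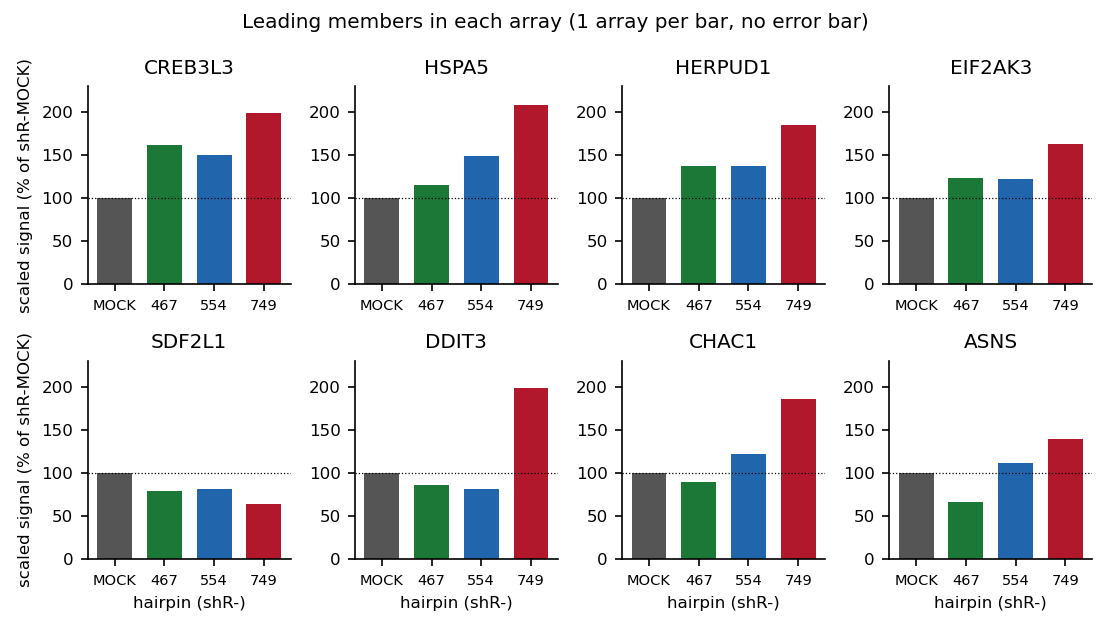
Scaled signal of 8 genes as a percentage of shR-MOCK (y axis) in each array (x axis), with 1 array per bar and hence no error bar. CREB3L3, HSPA5, HERPUD1 and EIF2AK3 are above 100% with every hairpin and highest with shR-749, SDF2L1 is below it, and DDIT3, CHAC1 and ASNS are below mock with shR-467 and above it with shR-749.

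None of the 8 regulators of the ATF4 arm reached 1.5-fold on average, where 2.29% of all genes were higher and 7.65% lower. Their medians were 0.03, -0.02 and 0.48 in hairpin order. ATF4 itself gave 84645 in mock, 74599.7 under shR-467, 99058 under shR-554 and 99348 under shR-749, and its scaled differences of 0.01, -0.08 and 0.22 averaged 0.05 ± 0.16 (SD, n = 3 hairpins); ATF4 is known to be controlled mainly in translation, which arrays do not read. DDIT3, the transcription factor CHOP that is linked to cell death in prolonged stress, gave 652 in mock, 489 under shR-467, 656 under shR-554 and 1309.85 under shR-749. It was below mock with shR-467 and shR-554 (-0.22 and -0.30) and at 199% of mock with shR-749 (0.99), so the mock value lay inside the range of the hairpins and the mean was 0.16 ± 0.73.

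CHAC1, an enzyme that degrades glutathione, gave 1490 in mock, 1160 under shR-467, 2260 under shR-554 and 2800 under shR-749. Its differences ranged from -0.17 with shR-467 over 0.29 with shR-554 to 0.90 with shR-749 (mean 0.34 ± 0.53, SD, n = 3 hairpins). ATF3, a stress-induced transcription factor, gave 2690 in mock and 2420.0, 3522 and 4669 under shR-467, shR-554 and shR-749. It was near mock with shR-467 and shR-554 (0.04 and 0.08) and 0.78 above it with shR-749. Of the 3 other ATF3 probes, 2 had means of 0.18 and 0.28 and 1 a mean of -0.47, so the probes of this gene disagreed. PPP1R15A, the phosphatase subunit GADD34 that directs dephosphorylation of eIF2, gave 153 in mock and 101, 196 and 233 with the hairpins, differences of -0.41, 0.04 and 0.59.

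Of the remaining regulators, TRIB3 and DDIT4 were not highest with shR-749. TRIB3, a pseudokinase that restrains ATF4 and CHOP, was above mock with every hairpin and lowest with shR-749, by 0.40, 0.22 and 0.17 (mean 0.26 ± 0.12, SD, n = 3 hairpins). DDIT4, an inhibitor of mTORC1, was above mock with shR-467 (0.28) and below it with shR-554 (-0.52) and shR-749 (-0.41). SESN2, another inhibitor of mTORC1, had differences of 0.20, -0.10 and 0.36, the highest with shR-749.

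The 4 metabolic and receptor genes of the ATF4 arm were all highest with shR-749, and their means lay between -0.07 and 0.18. ASNS, asparagine synthetase, gave 15492 in mock, 9007 under shR-467, 21349.9 under shR-554 and 21849.5 under shR-749. It was at 66.6% of mock with shR-467 and at 111% and 139.8% with shR-554 and shR-749, a mean of 0.02 ± 0.55 (SD, n = 3 hairpins). The serine synthesis enzymes PSAT1 and PHGDH had differences of 0.15, -0.19 and 0.22 and of -0.17, -0.33 and 0.29. VLDLR, a lipoprotein receptor induced by ATF4 in ER stress, was read by a dim probe at 54.9, 60.1, 38.3 and 114 scanner units in the order mock, shR-467, shR-554, shR-749. Its differences of 0.33, -0.83 and 1.04 were the widest of the 38 genes (SD 0.95).

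The arms differed more in their spread between hairpins than in their average. The chaperone and XBP1/ATF6 arm had medians of 0.02, 0.08 and 0.04 in the order shR-467, shR-554, shR-749 (mean 0.04 ± 0.03, SD, n = 3 hairpins). With each hairpin taken singly, 13 of its 23 genes, not always the same ones, were above mock. Of the 23, 8 were above mock with every hairpin (17.5% of all genes) and 5 below it with every hairpin (20.5% of all genes). The ATF4 arm had medians of 0.03, -0.09 and 0.42 (mean 0.12 ± 0.27), with 7, 5 and 11 of its 12 genes above mock, where 54.3%, 45.2% and 42.9% of all genes were. Taken within each hairpin, the ATF4 median minus the chaperone median was 0.01, -0.17 and 0.38, a mean of 0.08 ± 0.28, which is smaller than the spread between hairpins. Without shR-749 this mean was -0.08, so its sign rests on that array. The median SD of a gene between hairpins was 0.43 in the ATF4 arm and 0.15 in the chaperone arm, against 0.22 for all genes well above background on all arrays. It was 0.19 for the 51 other integrated stress response genes tested, which are described below. By this median, the wide spread was seen in the 12 genes of the arm and not in that longer list. The list also holds the other eIF2 kinases, and single genes in it had an SD of up to 0.89.

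**Figure D3:**
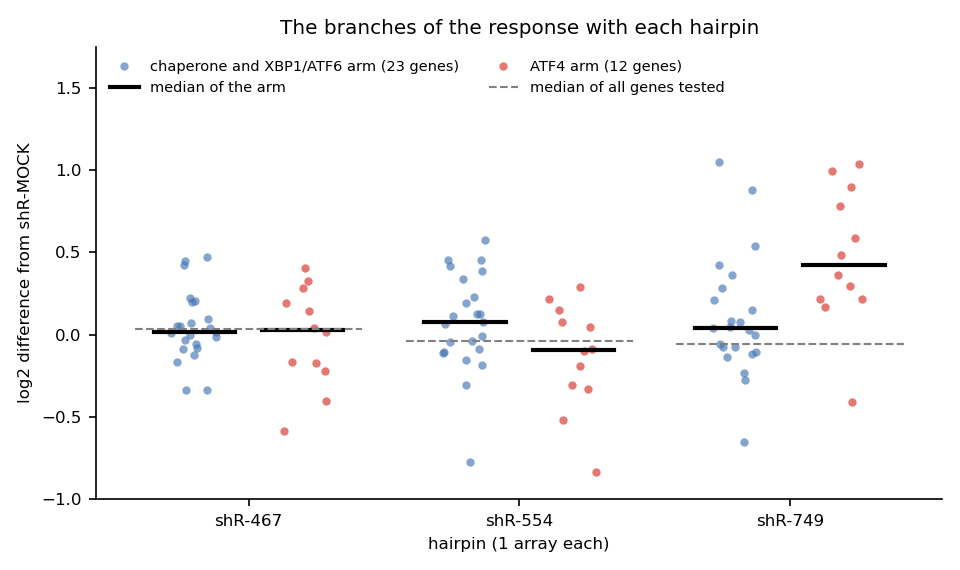
Log2 difference from shR-MOCK (y axis) of each gene of the chaperone and XBP1/ATF6 arm (23 genes) and of the ATF4 arm (12 genes) with each hairpin (x axis, 1 array each); black lines are the medians of an arm and dashed lines those of all genes tested. The ATF4 median is 0.42 with shR-749 and near 0 with the others, while the chaperone median stays between 0.02 and 0.08.

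With shR-749, 9 of the 38 genes were at least 1.5-fold above mock (5.41% of all genes), namely HSPA5, HERPUD1, EIF2AK3, CREB3L3, DDIT3, ATF3, CHAC1, PPP1R15A and VLDLR, and SDF2L1 was 1.5-fold below it (10.3% of all genes). With shR-467 CREB3L3 was the 1 gene 1.5-fold higher (7.28% of all genes) and ASNS the 1 lower (6.76%). With shR-554 no gene was 1.5-fold higher (4.41% of all genes), and DNAJB9 and VLDLR were lower, 2 of 38 against 15.9% of all genes. Of the 3 hairpins, shR-749 gave the highest value for 10 of the 12 ATF4 genes (all but TRIB3 and DDIT4) and for 8 of the 23 chaperone-arm genes, where 26.3% of all genes were highest with it.

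The hairpins were also set against each other, a comparison in which the mock array has no part. From shR-467 to shR-749, the median difference was 0.59 in the ATF4 arm and 0.02 in the chaperone arm, and 6 of the 12 ATF4 genes but 1 of 23 chaperone-arm genes were at least 1.5-fold higher (8.15% of all genes). DDIT3, CHAC1, ASNS and PPP1R15A were higher by 1.21, 1.06, 1.07 and 1.00, and HSPA5 by 0.85. In each arm 1 gene was at least 1.5-fold lower, DDIT4 (-0.69) and DERL3 (-0.75), where 14.3% of all genes were. From shR-554 to shR-749 the medians were 0.50 and 0.01, and 5 ATF4 genes and 1 chaperone-arm gene, DNAJB9, were at least 1.5-fold higher (13.6% of all genes). No gene of either arm was 1.5-fold lower, where 7.23% of all genes were. From shR-467 to shR-554 the ATF4 median was -0.13, with 1 of its genes 1.5-fold higher (7.86% of all genes) and 2 lower (19.4% of all genes). Each of these differences is between single arrays and has no replicate error; the repeat spots of 28 of the 38 genes had a median SD of 0.036 within an array, up to 0.137, which covers the array surface alone.

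Genes with and without the promoter elements overlapped in their values. The 10 chaperone-arm genes with an ERSE or ERSE-II had means from -0.43 (SDF2L1) to 0.61 (HSPA5) with a median of -0.01, and the 10 without one had means from -0.30 to 0.36 with a median of 0.04. In the ATF4 arm the 3 genes with a CARE had means from 0.02 to 0.34 with a median of 0.30, and the 9 without one had means from -0.21 to 0.26 with a median of 0.08. With shR-749 these medians were 0.78 and 0.29, while with shR-467 the genes with a CARE were at 0.04 (ATF3), -0.17 (CHAC1) and -0.59 (ASNS). These are descriptions of few genes and were not tested.

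Among 52 other genes of ER import, folding, degradation and unfolded protein signalling, all of which were tested, 3 (HSPA13, SEC62 and SEC63) were at least 1.5-fold above mock on average, against 2.29% of all genes, and 1 (ERO1L) below, against 7.65%. HSPA13 and SEC63 passed with every hairpin, 2 of 52 against 0.537% of all genes. SEC62 was read by a dim probe, at 38.3 scanner units in mock and 62.7, 82.2 and 43.6 with the hairpins. Its differences were 0.91, 0.79 and 0.17. HSPA13, an Hsp70 protein of the ER, gave 612 in mock, 1209.8 under shR-467, 2525 under shR-554 and 1710.0 under shR-749, higher by 1.18, 1.73 and 1.47 (mean 1.46 ± 0.28, SD, n = 3 hairpins; limma's adjusted p = 0.905). SEC63, the J-domain partner of BiP at the import channel, gave 4529 in mock and 6380.0, 8599.95 and 7394 with the hairpins, higher by 0.69, 0.61 and 0.69 (mean 0.67 ± 0.05). ATF6B, the paralog of ATF6, was above mock by 0.30, 0.12 and 0.69. MBTPS1, the Golgi protease that makes the first cut in ATF6, gave 2660 in mock, 2760 under shR-467, 3350 under shR-554 and 1050 under shR-749. It was low with shR-749 alone (0.25, 0.02 and -1.35), and MBTPS2, the protease of the second cut, was at -0.05, 0.12 and -0.28.

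Of 52 other genes of the integrated stress response, 51 were tested (FGF21 was not), and 1, SLC6A9, was 1.5-fold higher on average, a share near the 2.29% of all genes. It also passed with every hairpin (0.537% of all genes). SLC6A9, a glycine transporter, gave 359 in mock, 667 under shR-467, 899 under shR-554 and 816 under shR-749, higher by 1.09, 1.01 and 1.17 (mean 1.09 ± 0.08, SD, n = 3 hairpins; limma's adjusted p = 1.00). The list had medians of -0.07, 0.01 and 0.17 under shR-467, shR-554 and shR-749, and 35 of the 51 genes were highest with shR-749, where 26.3% of all genes were. The other kinases of eIF2 had means of 0.12 ± 0.13 (EIF2AK1), -0.14 ± 0.19 (EIF2AK2) and 0.10 ± 0.08 (EIF2AK4). The 13 cytosolic heat shock genes, which belong to a separate folding response, had medians of 0.05, -0.14 and 0.07. None passed 1.5-fold with any hairpin, where 4.41% to 7.28% of all genes were higher and 6.76% to 15.9% lower.

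**Figure D4:**
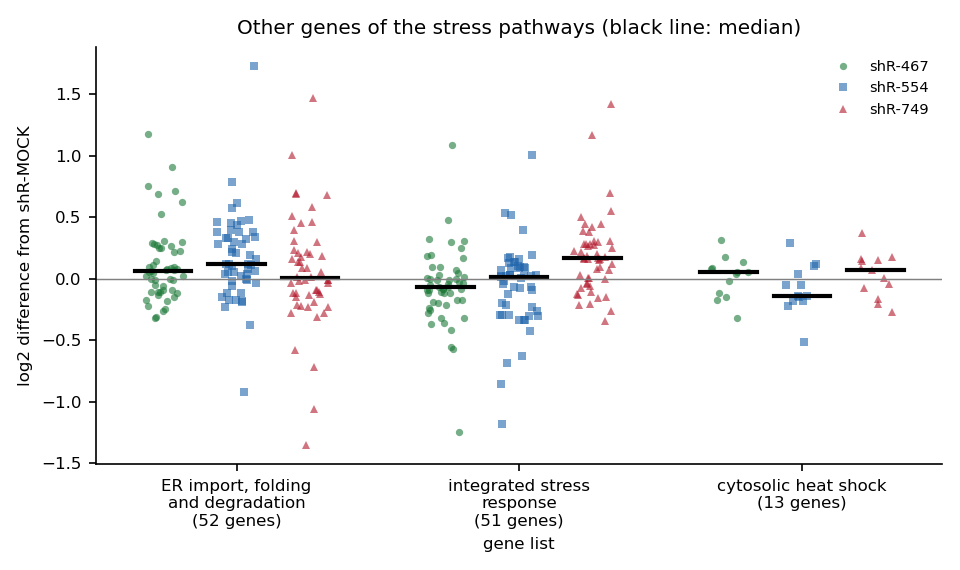
Log2 difference from shR-MOCK (y axis) of the other genes of 3 stress pathways (x axis), 1 point per gene and hairpin, with black lines at the medians. The integrated stress response has its highest median, 0.17, with shR-749, and the cytosolic heat shock genes lie close to 0.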

How the data were processed

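Total RNA of 4 Hep3B cultures was measured on 1-colour Agilent arrays. The authors deposited, for each array, spot intensities from Agilent Feature Extraction 10.7.1.1, with the background already subtracted in the processed signal, and a table of log2 values whose normalization is not given in the sources used here; the latter served as an alternative. Gene names and hg19 positions are those of the array annotation. From the intensities, log2 values were formed and centred on each array's own 75th percentile, outlier spots were dropped, and spots of a probe were averaged. Probes well above background in at least 50% of their spots on the mock array, or on each of the 3 knockdown arrays, were kept, with the brightest probe for each gene. Differences were tested with limma 3.58.1 in R 4.3.3 (lmFit and eBayes with a trend, Benjamini-Hochberg adjustment), which gives the single mock array the spread of the hairpins (2 residual degrees of freedom, prior 4.97); the step was tested on simulated data. Python 3.11.15 was used for the rest. The precision is limited by the number of arrays. Nothing in the labels says that the cultures were independent beyond the hairpin. The genes and lists were chosen with earlier results of these data known. Named are all 38 genes, UNC50, the genes of the other lists past 1.5-fold with every hairpin, and the remaining eIF2 kinases and ATF6-related genes; SEC62, ERO1L and the marker genes were named with their values known. Tried in turn were other scalings, normexp with an offset of 50, the deposited log2 values, filters on dim probes, outlier spots kept, the mean over probes, a floor for dim signals, a 2-fold threshold, other compositions of the arms, limma without its trend, the methods' t-test, and leaving out each hairpin; the second PDIA3 probe and the counts of genes highest with shR-749 under other processing were added after seeing the data.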

Additional observations from a re-analysis of the deposited data

How the results depend on the processing

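Of 118 alternative values for the counts and medians of the report 110 kept their call or moved by less than the spread between hairpins, as did 452 of 457 for single genes. No gene past 1.5-fold on average changed sign, but values near 0 did, among them HSP90B1 (-0.07 to 0.01) and PDIA3 (-0.02 to 0.09) with the mean over probes. The number of genes at least 1.5-fold from mock with every hairpin went from 0 to 1 (CREB3L3) with median scaling and with normexp and quantile normalization, and ranged from 0 to 1 with a hairpin left out (1 without shR-554). The number past 1.5-fold on average was 0 at 2-fold and 1 to 4 with a hairpin left out. It fell to CREB3L3 alone without shR-749, while CHAC1 was added without shR-467 and VLDLR without shR-554, and normexp took HSPA5 below the threshold (0.56). The limma calls over all genes rose from 0 to 4 with normexp and quantile normalization and ranged from 0 to 2 with a hairpin left out (2 without shR-554, 1 without shR-749). The lowest adjusted p of any of the 38 genes in limma was 0.976, for CREB3L3 without shR-554. At an unadjusted p, the limma count of 381 genes ranged from 345 to 715 over the alternatives, the higher value with no filter on dim probes, and without shR-467 and shR-554 it was 697 and 593. The methods' t-test counted 646 genes unadjusted and 0 adjusted. The causes were not tested. The ATF4 minus chaperone difference (0.08) was 0.03 to 0.13 under all other settings and -0.08 to 0.20 with a hairpin left out (-0.08 without shR-749), and the ATF4 median (0.12) was -0.03 without shR-749, so both changed sign. The 10 ATF4 genes highest with shR-749 stayed 10 in number under all 9 other settings, while the count for the chaperone arm was 8 to 12 and that for the other integrated stress response genes 32 to 39. The share of all genes highest with shR-749 was 24.5% to 30.1% under these settings. The chaperone-arm count of 12 came with quantile normalization and the deposited log2 values, where this share was 29% and 30.1%. No paired analysis was possible because the mock has 1 array, and a slide block could not be fitted because all arrays share 1 slide. Among the 38 genes, signal over background limits the dim probes of ERN1 and VLDLR most.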
